A study of Mus musculus with 2 samples.

Results

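The Dlx genes encode homeodomain transcription factors, and 6 of them (Dlx1 to Dlx6) and 3 non-coding transcripts of the same loci (Dlx1as, Dlx6os1 and Dlx4os) are described here in neural crest cells of the mouse head. The members were taken by symbol, and all 9 were found among the 32285 genes of the deposited files. No measured value served as a rule for their choice, but earlier results of these data were known when they were chosen. Most Dlx transcripts in these cells came from pharyngeal arch mesenchyme: the 3 pairs of neighbouring genes were detected in different but overlapping regions, and 6 of the 8 members with enough counts were lower in the mesenchyme of the Tfap2 mutant library than in that of the control library. By the same rule 14.1% of all genes tested were lower.

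Dlx genes lie in the genome as convergently transcribed pairs, Dlx1 with Dlx2, Dlx3 with Dlx4, and Dlx5 with Dlx6, and the genes of a pair share nearby enhancers. In arch mesenchyme they form what is known as the nested Dlx code. Dlx1 and Dlx2 are on along the whole length of an arch from its upper to its lower end, Dlx5 and Dlx6 in the lower part, and Dlx3 and Dlx4 only near the lower tip. Dlx5 and Dlx6 act downstream of endothelin signalling and give the lower jaw its identity, while Dlx1 and Dlx2 alone pattern the upper jaw. In the forebrain, Dlx1, Dlx2, Dlx5 and Dlx6 drive the formation of GABA neurons. Dlx6os1, also known as Evf2, is transcribed across Dlx6 and can guide DLX proteins to the enhancers between Dlx5 and Dlx6.

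The cells profiled by single-cell RNA-seq were cranial neural crest cells of E11.5 embryos, sorted for the membrane GFP that Wnt1:CRE switches on from the mTmG reporter. The heads were taken down to and including the second pharyngeal arch. The control (Tfap2HET) was wt/flox for Tfap2a and wt/flox for Tfap2b, and the mutant (Tfap2NCKO) was flox/flox for Tfap2a and flox/flox for Tfap2b. Embryos of both groups carried the driver (Wnt1CRE+) and 2 copies of the reporter (r26 mTmG/mTmG), and the control cells were heterozygous for the floxed allele of each Tfap2 gene. The driver is also active in the dorsal midbrain and hindbrain, so brain cells were sorted along with neural crest.

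Each group was a single library made from 2 pooled embryos, so no difference below has a replicate check and no p-value is given. Values in brackets are 95% intervals that cover counting error only. The control library held 83542433 UMIs in 6148 barcodes and the mutant library 79206144 UMIs in 6063 barcodes; a UMI is a tag that marks 1 captured transcript. The filter kept 5625 control and 5587 mutant cells, with median depths of 13478 and 12234 UMIs, and 5 barcodes were kept in both libraries. Xist was detected in 98.8% of the control cells, while Y-linked transcripts were detected in 82.0% of the mutant cells, so embryo sex and genotype cannot be told apart in any comparison. The targeted genes were still counted in the mutant mesenchyme, Tfap2a at 19.4 and 13.3 CPM and Tfap2b at 56.5 and 47.9 CPM in control and mutant (CPM, UMIs per 1000000 UMIs of the population). A 3′ count does not tell a recombined from an intact allele, so these levels check neither label.

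The members were unevenly covered. Over all kept cells, Dlx5 had 5066 control and 3073 mutant UMIs, Dlx2 had 2570 and 1772, Dlx1 had 2081 and 1558, Dlx6 had 1893 and 1020, Dlx6os1 had 1367 and 903, and Dlx3 had 791 and 419. Dlx4os (290 and 89 UMIs), Dlx4 (141 and 97) and Dlx1as (106 and 81) were sparse, and their values below have wide intervals. Dlx1as was the single member with under 100 UMIs in the mesenchyme of both libraries.

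The 9 members lie in 3 loci of the mm10 genome (GENCODE M21 annotation). Dlx1 (ENSMUSG00000041911, chr2:71528113-71533981, plus strand) and Dlx2 (ENSMUSG00000023391, chr2:71543408-71546754, minus strand) are 9426 bases apart, and Dlx1as (ENSMUSG00000084946, chr2:71516454-71537891, minus strand) spans Dlx1 whole. Dlx6 (ENSMUSG00000029754, chr6:6863334-6868568, plus strand) and Dlx5 (ENSMUSG00000029755, chr6:6877805-6882085, minus strand) are 9236 bases apart, and Dlx6os1 (ENSMUSG00000090063, chr6:6820189-6871592, minus strand) spans Dlx6 whole but shares none of its exon bases. Dlx3 (ENSMUSG00000001510, chr11:95120119-95125296, plus strand) and Dlx4 (ENSMUSG00000020871, chr11:95140447-95146263, minus strand) are 15150 bases apart, and Dlx4os (ENSMUSG00000086552, chr11:95145052-95159047, plus strand) overlaps Dlx4 by 1212 bases, of which 79 are exonic in both. Dlx1 and Dlx1as share 335 exonic bases. Whether the counting used strand is not given in the sources used here, so reads of a sense gene and its antisense partner may be mixed.

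Promoter sequence from RefSeq (GRCm38.p6, the same assembly; 250 bases before to 50 after an annotated start) was matched for 4 of the 9 members, Dlx1, Dlx2, Dlx6os1 and Dlx4os, with 5 windows in all. 4 are printed to set the loci side by side: Dlx1 and Dlx2 because they mark the broadest domain, Dlx6os1 for its motifs and Dlx4os because its mutant level was the farthest from its control level. Capitals mark TAATTA, the core that many homeodomain proteins bind, which reads the same on both strands.
Dlx1, chr2:71529195-71529494, plus strand: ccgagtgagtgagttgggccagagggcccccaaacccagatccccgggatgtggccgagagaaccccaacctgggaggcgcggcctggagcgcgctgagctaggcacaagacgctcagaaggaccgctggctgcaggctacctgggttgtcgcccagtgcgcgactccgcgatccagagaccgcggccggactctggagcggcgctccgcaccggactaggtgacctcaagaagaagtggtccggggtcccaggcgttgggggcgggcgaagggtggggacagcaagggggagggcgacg
Dlx2, chr2:71546705-71547004, minus strand: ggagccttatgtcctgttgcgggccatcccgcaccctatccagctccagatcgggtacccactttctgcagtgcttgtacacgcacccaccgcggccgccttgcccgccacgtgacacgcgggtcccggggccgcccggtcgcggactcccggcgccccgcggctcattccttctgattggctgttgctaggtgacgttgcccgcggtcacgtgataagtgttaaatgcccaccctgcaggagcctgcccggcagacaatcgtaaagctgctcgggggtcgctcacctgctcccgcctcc
Dlx6os1, chr6:6869484-6869783, minus strand: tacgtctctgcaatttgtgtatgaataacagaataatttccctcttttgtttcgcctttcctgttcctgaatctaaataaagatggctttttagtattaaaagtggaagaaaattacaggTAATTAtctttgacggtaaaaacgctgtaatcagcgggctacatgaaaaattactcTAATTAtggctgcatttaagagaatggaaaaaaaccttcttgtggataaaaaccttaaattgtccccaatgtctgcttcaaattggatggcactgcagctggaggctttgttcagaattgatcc
Dlx4os, chr11:95144803-95145102, plus strand: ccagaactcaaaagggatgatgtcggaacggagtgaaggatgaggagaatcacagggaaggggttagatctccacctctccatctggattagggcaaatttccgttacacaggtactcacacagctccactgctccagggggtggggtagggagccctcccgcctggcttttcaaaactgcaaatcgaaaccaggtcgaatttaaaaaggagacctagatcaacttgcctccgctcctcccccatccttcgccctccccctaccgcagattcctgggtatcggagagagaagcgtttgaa

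The windows differ in composition. The Dlx1 and Dlx2 windows are GC-rich (69.3% and 66.3% G or C), the Dlx4os window has 53.3%, and the Dlx6os1 window has 35.7%, against a median of 52.7% over all promoter windows of the table. TAATTA occurs 2 times in the printed Dlx6os1 window, beginning at -130 and -74 bases from the start site, and once in the window of a second Dlx6os1 start (chr6:6861634-6861933), at -174. It is absent from the Dlx1, Dlx2 and Dlx4os windows and present in 5.29% of the 32851 windows. The TFAP2 consensus GCCNNNGGC, also the same on both strands, is in none of the 5 windows and in 16.6% of all windows. These are matches of letters in short windows and do not say whether a factor binds there.

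To place the Dlx genes in the head without using them to define the regions, cells were clustered with the 9 members, Tfap2a, Tfap2b and sex-linked transcripts left out. The first level gave mesenchyme (3758 control and 2814 mutant cells), glia-like cells (261 and 200) and, as the third class, cells (1606 and 2573) in which all 8 neuron and all 8 brain progenitor markers were higher than elsewhere, but whose leading genes held haemoglobin transcripts, so it was not named. The mesenchyme was then divided into 8 clusters. One was frontonasal-like (781 control and 409 mutant cells), one distal mandibular-like with Hand1 and Hand2 (740 and 380), and one maxillary-like with Lhx6 and Lhx8 (630 and 448), genes that also mark the oral side of the mandibular arch. The remaining clusters are called by leading genes. The Hoxa2/Emx2 cluster (533 and 453 cells) had the second arch marker Hoxa2 among its leading genes and 3 of 5 second arch markers higher than elsewhere (mean log2 ratio 1.17), but a UMI of Hoxa2, Hoxb2, Hoxa3 or Hoxb3 was found in only 32.9% of control cells and 41.3% of mutant cells in it after thinning to 5000 UMIs, so it is not taken as second arch alone. The others were the Foxl2/Gata3 cluster (543 and 428 cells), the Cyp26a1/Hmx1 cluster (132 and 243), in which all 5 second arch markers were higher (mean log2 ratio 2.12) but none was a leading gene, and the Vtn/Acta2 cluster (355 and 371), the last with the vascular mural genes Acta2 and Tagln. The eighth, with 44 control and 82 mutant cells, was 72.2% called doublets and is not compared. A majority of Foxl2/Gata3 cells carried Alx1, a gene of the midface (control 64.4%, mutant 52.4%, after the same thinning). Lhx6 or Lhx8 UMIs were present in fewer of these cells (37.4% and 34.6%). Of 6 frontonasal markers, 4 were higher in the Foxl2/Gata3 cluster than elsewhere (mean log2 ratio 0.37), but none was a leading gene. This cluster is therefore not taken as arch alone.

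Dlx5, a gene of the lower arch, was well above background in 4 of the 7 clusters compared. In the control library its level was 246 (235 to 257) CPM in the Hoxa2/Emx2 cluster, 97.3 (91.7 to 103) in the maxillary-like cluster, 95.4 (89.6 to 101) in the distal mandibular-like cluster and 63.7 (58.5 to 69.4) in the Foxl2/Gata3 cluster. The maxillary-like and distal mandibular-like levels did not differ beyond counting error, and all other steps in this order did. In the Cyp26a1/Hmx1, frontonasal-like and Vtn/Acta2 clusters the Dlx5 level was 10.4, 8.42 and 5.98 CPM, with overlapping intervals. Brain progenitor-like cells (4 clusters, 758 control and 1227 mutant cells), which serve as a background because they lie outside the known Dlx domains of the head, had 4.10 CPM. This background was uneven, since the 10 cells with the most UMIs held 74.4% of its Dlx5 and 96.4% of its Dlx1 UMIs in the control library. Whether it comes from free RNA, doublets or a few expressing cells was not tested.

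Dlx6, the partner that shares Dlx5 enhancers, ranked the same clusters slightly differently. It was at 94.6 (87.9 to 102) CPM in the Hoxa2/Emx2 cluster, 46.2 (42.3 to 50.5) in the distal mandibular-like, 34.9 (31.6 to 38.5) in the maxillary-like and 15.5 (13.0 to 18.4) in the Foxl2/Gata3 cluster of the control library. Here every neighbouring step exceeded counting error. In the 3 remaining clusters it was between 0.693 and 1.82 CPM, at or below the 2.21 CPM of the brain progenitor-like cells.

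Dlx1 and Dlx2, the pair of the whole arch, were distributed otherwise. Control Dlx1 was at 66.7 (61.1 to 72.7) CPM in the Hoxa2/Emx2 and 64.0 (59.5 to 68.8) CPM in the maxillary-like cluster, which did not differ beyond counting error. It was lower in the Cyp26a1/Hmx1 cluster, at 45.7 (35.4 to 58.2) CPM, and in the distal mandibular-like cluster, at 27.2 (24.2 to 30.5) CPM. In the Foxl2/Gata3 cluster, where Dlx5 was plentiful, Dlx1 was at 6.88 CPM, and in the frontonasal-like and Vtn/Acta2 clusters at 1.35 and 1.30, no higher than the 2.94 CPM of the background cells. Dlx2 kept the same order but separated the first 2 clusters, with 101 (94.3 to 109) CPM in the Hoxa2/Emx2, 67.5 (62.9 to 72.4) in the maxillary-like, 47.1 (36.6 to 59.7) in the Cyp26a1/Hmx1 and 35.1 (31.6 to 38.8) in the distal mandibular-like cluster, the last 2 overlapping. In the Foxl2/Gata3 cluster Dlx2 was at 11.04 CPM, and in the Vtn/Acta2 and frontonasal-like clusters at 4.16 and 2.71.

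Dlx3 and Dlx4, the pair of the lower tip, were the most restricted. Dlx3 was at 65.4 (59.8 to 71.3) CPM in the control Hoxa2/Emx2 cluster, 14.7 (12.5 to 17.2) in the distal mandibular-like and 3.70 (2.68 to 4.98) in the maxillary-like cluster. Its intervals in the maxillary-like cluster and in the other 4 clusters overlapped that of the background cells, 1.68 (0.961 to 2.73) CPM. Dlx4 was at 12.4 (10.0 to 15.1) CPM in the Hoxa2/Emx2 and 2.24 (1.43 to 3.33) CPM in the distal mandibular-like cluster. It had 9 or fewer UMIs in each other mesenchyme cluster, and none in the Cyp26a1/Hmx1 cluster. The Hoxa2/Emx2 cluster held 67.6% of the mesenchymal Dlx3 UMIs and 70.6% of the Dlx4 UMIs of the control library, against 39.6% of the Dlx5 UMIs. For Dlx1 the largest share, 42.8%, was in the maxillary-like cluster.

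**Figure D1:**
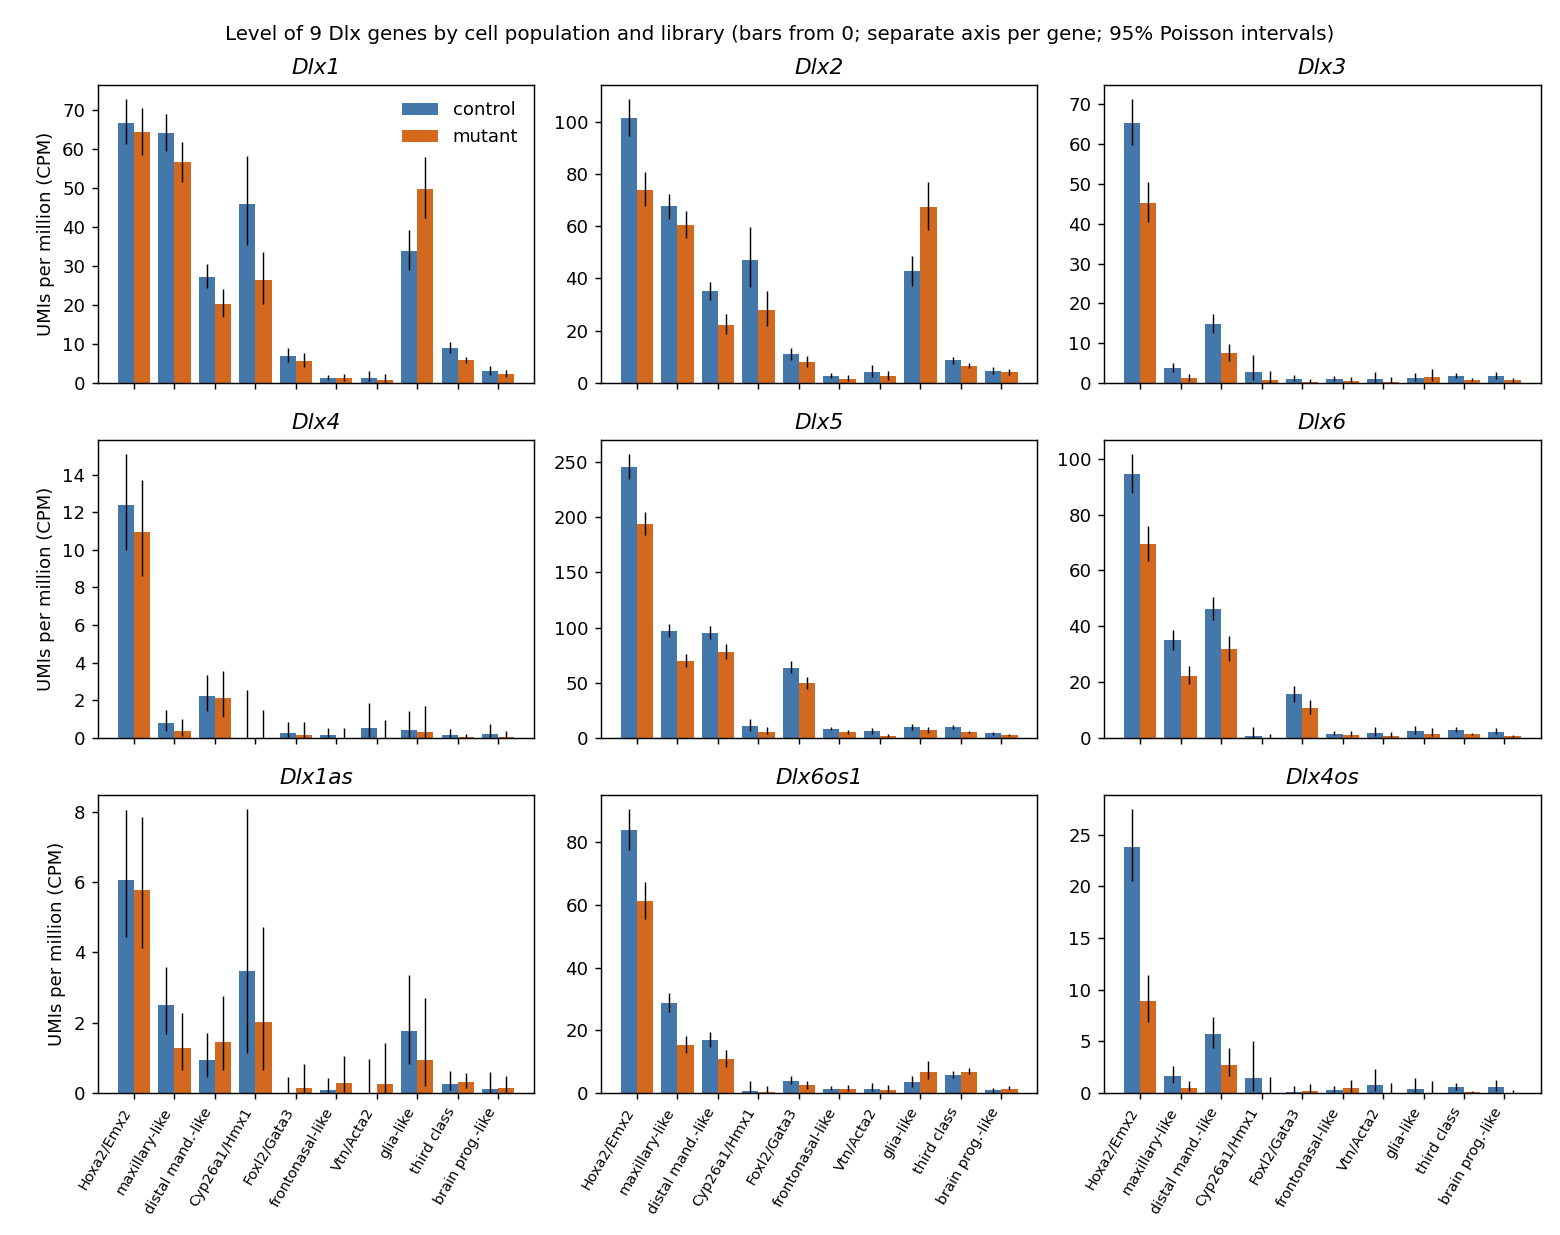
Level of each of the 9 members (y axis, CPM, separate axis for each gene, from 0) in 7 mesenchyme clusters, the glia-like cells, the third class and the brain progenitor-like cells (x axis), for the control library (blue) and the mutant library (orange), with 95% Poisson intervals. Dlx3, Dlx4 and Dlx4os stand almost alone in the Hoxa2/Emx2 cluster, while Dlx5 spans 4 clusters and Dlx1 and Dlx2 are also present in the Cyp26a1/Hmx1 and glia-like cells.

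The mix of the pairs, taken as the share of all UMIs of the 6 coding genes, also separated the clusters. These are shares of counts, not corrected for transcript length, and are compared only between populations. Dlx5/Dlx6 made up 80.5% (77.6 to 83.1%) of the UMIs in the Foxl2/Gata3 cluster, 64.1% (62.2 to 66.1%) in the distal mandibular-like, 58.1% (56.7 to 59.5%) in the Hoxa2/Emx2, 49.3% (47.5 to 51.1%) in the maxillary-like and 10.4% (6.06 to 16.3%) in the Cyp26a1/Hmx1 cluster of the control library. None of these 5 intervals overlapped. The Cyp26a1/Hmx1 cluster was thus a Dlx1/Dlx2 population, with 87.0% (80.7 to 91.9%) of the UMIs from that pair. The Foxl2/Gata3 cluster was a Dlx5/Dlx6 population in which Dlx1/Dlx2 made up 18.2% (15.6 to 21.0%). Because most Foxl2/Gata3 cells carried the midface gene Alx1, the mix of this cluster is not read as part of the arch code alone. The mutant library had the same order, with Dlx5/Dlx6 shares of 81.1%, 68.0%, 57.6%, 43.7% and 9.33%. The shares of the libraries had separate intervals in the maxillary-like cluster, where the mutant interval was 41.4 to 46.1%. In cells gated on Lhx6 or Lhx8 alone of the region markers the Dlx5/Dlx6 shares were 47.8% (45.8 to 49.8%) and 46.9% (44.6 to 49.2%), with overlapping intervals.

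Nesting was next examined in single cells, each thinned to 5000 UMIs so that deeper cells did not appear richer. The 50 control and 55 mutant mesenchyme cells with fewer UMIs were left out. In the control mesenchyme, 27.8% (26.4 to 29.3%) of the cells had a Dlx5 or Dlx6 UMI, 21.4% (20.1 to 22.7%) a Dlx1 or Dlx2 UMI, and 5.58% (4.87 to 6.37%) a Dlx3 or Dlx4 UMI. Without thinning the shares were 38.8%, 36.0% and 11.4%, so the shares grow with depth and are lower limits of the share of expressing cells. In the brain progenitor-like cells, whose main cluster had a control median of 11966 UMIs against 14570 in the mesenchyme, the thinned shares were 1.34%, 1.75% and 0.538%.

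Cells with Dlx3 or Dlx4 were mostly cells with Dlx5 or Dlx6. In the control mesenchyme 81.6% of the Dlx3/Dlx4 cells (169 of 207) also had Dlx5/Dlx6, against 24.6% of the cells without Dlx3/Dlx4. In the mutant these shares were 75.7% (81 of 107) and 18.4%. The relation was also present inside a single cluster, where regional differences weigh less. In the Hoxa2/Emx2 cluster the shares were 88.9% with and 64.4% without Dlx3/Dlx4 in the control, and 79.8% and 48.0% in the mutant.

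Dlx1/Dlx2 and Dlx5/Dlx6 overlapped less tightly. Dlx1/Dlx2 was detected in 39.7% of the control mesenchyme cells with Dlx5/Dlx6 (409 of 1031) and 14.3% of those without, and in 33.4% (190 of 569) and 14.02% in the mutant. Within clusters the gap was much smaller. It was 54.5% against 49.3% in the control Hoxa2/Emx2 cluster and 46.7% against 41.4% in the control maxillary-like cluster. In the Foxl2/Gata3 cluster 5 of 121 cells with Dlx5/Dlx6 had Dlx1/Dlx2, against 23 of 416 cells without. The distal mandibular-like cluster was the exception, at 33.0% against 15.0% in the control but 15.0% against 11.6% in the mutant library.

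The mutant library had fewer cells with a detected pair in the arch clusters. In the Hoxa2/Emx2 cluster Dlx5/Dlx6 was found in 71.1% (67.0 to 74.9%) of control cells and 54.4% (49.6 to 59.1%) of mutant cells, and Dlx3/Dlx4 in 27.4% (23.6 to 31.4%) and in 89 of 445 (16.4 to 24.0%). All 3 pairs together were found in 12.9% of control cells and 7.64% of mutant cells, and none of the 6 genes in 13.7% and 24.0%. In the maxillary-like cluster the Dlx5/Dlx6 share was 36.3% (32.6 to 40.2%) in the control and 23.3% (19.4 to 27.5%) in the mutant, while the Dlx1/Dlx2 shares, 43.3% (39.4 to 47.3%) and 37.4% (32.9 to 42.03%), had overlapping intervals. In the distal mandibular-like cluster the reverse held, with Dlx1/Dlx2 in 21.4% (18.5 to 24.5%) and 12.7% (9.51 to 16.5%) and overlapping intervals for Dlx5/Dlx6, 35.8% (32.3 to 39.3%) and 31.7% (27.1 to 36.7%). Unthinned, the Dlx5/Dlx6 shares in the Hoxa2/Emx2 cluster were 81.6% and 66.9%, in the maxillary-like cluster 53.8% and 43.3%, and in the distal mandibular-like cluster 51.6% and 51.3%.

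**Figure D2:**
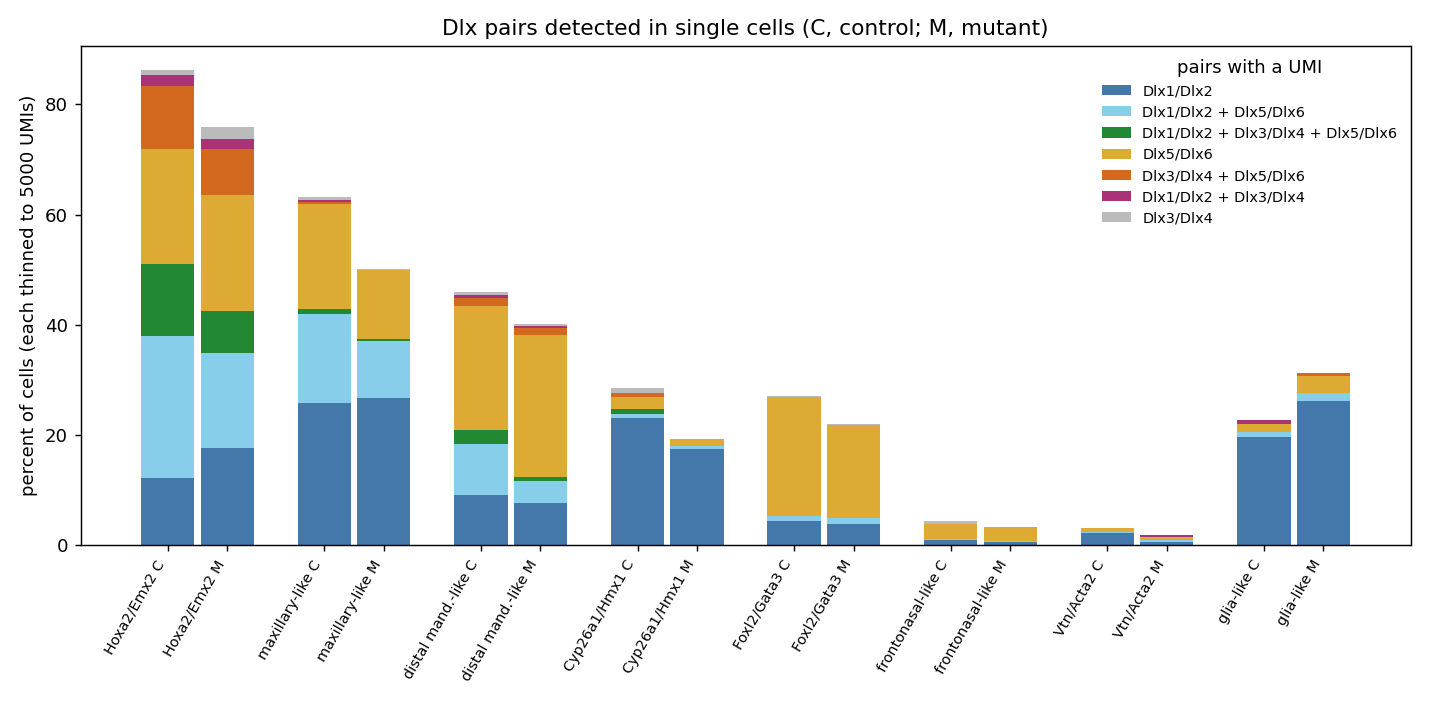
Percent of cells (y axis, each cell thinned to 5000 UMIs) with a UMI of 1 or more Dlx pairs, stacked by combination, for 7 mesenchyme clusters and the glia-like cells (x axis; C, control library; M, mutant library). The stack is shorter in the mutant bar of the Hoxa2/Emx2 cluster, where 24.0% of the cells had none of the 6 genes against 13.7% in the control.

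To ask how the Dlx genes differed between genotypes, the summed mesenchyme of the mutant library was compared with that of the control. Dlx5 was at 82.9 CPM in the control and 66.0 CPM in the mutant library (log2 ratio -0.33, -0.40 to -0.26), and Dlx6 at 31.3 and 22.2 CPM (log2 ratio -0.49, -0.61 to -0.38). Dlx3 was at 12.9 and 8.88 CPM (log2 ratio -0.54, -0.72 to -0.36), and Dlx2 at 37.5 and 30.8 CPM (log2 ratio -0.28, -0.38 to -0.19). These 4 genes were lower by more than counting error, as were Dlx6os1, at 21.3 and 15.4 CPM (log2 ratio -0.47, -0.61 to -0.33), and Dlx4os, at 4.77 and 2.00 CPM (log2 ratio -1.25, -1.61 to -0.90). The intervals of Dlx1 (29.8 and 27.8 CPM; log2 ratio -0.10, -0.21 to 0.01) and Dlx4 (2.33 and 2.16 CPM; log2 ratio -0.11, -0.50 to 0.28) included equal levels. Dlx1as, under the minimum of 100 UMIs, was at 1.58 and 1.57 CPM.

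Of the 8 members that passed the minimum, 6 had an interval wholly below equality and none wholly above it, where the background was 14.1% of 11652 genes below and 21.5% above. At a minimum difference of 1.5-fold, Dlx4os alone was lower, against 0.858% of all genes, and no member was higher, against 2.32%. The median log2 ratio over all genes was 0.02. In summed counts, fewer Dlx-expressing cells and less Dlx RNA per cell cannot be told apart. UMIs per cell were therefore taken from the thinned cells used for nesting. Among those with a Dlx5 UMI the mean number of Dlx5 UMIs was 1.74 in the control and 1.71 in the mutant mesenchyme. By cluster the means differed in both directions. They were 1.70 and 1.38 in the maxillary-like and 1.51 and 1.42 in the distal mandibular-like cluster. In the Hoxa2/Emx2 cluster they were 2.05 and 2.10, and in the Foxl2/Gata3 cluster 1.35 and 1.53. The least possible value is 1, and thinning brings the means nearer to it. Without thinning, 1342 control cells held 4831 Dlx5 UMIs and 832 mutant cells held 2900. Markers of other cells also moved in this comparison. The summed level of 8 neuron markers was 47.1 CPM in the control and 80.1 CPM in the mutant mesenchyme, with 7 of 8 higher, that of 8 brain progenitor markers 54.5 and 76.4 (7 of 8 higher), that of 8 glia markers 27.1 and 34.9 (5 of 8 higher), and that of 7 blood markers 8.71 and 1.73 (none higher). Markers of endothelium, epithelium and skeletal muscle summed to under 10 CPM each in both libraries, with Krt5 at 0. Their part in the Dlx differences was not tested.

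The background cells bear on the smallest differences. In the brain progenitor-like cells Dlx5 was at 4.10 and 2.26 CPM, Dlx6 at 2.21 and 0.597 CPM and Dlx3 at 1.68 and 0.663 CPM in control and mutant, and Dlx4os had 5 and 0 UMIs. The lower mutant level of these members was thus also present in cells where the genes are at background, and clusters with levels of this size are not read further. The arch clusters lie well above it.

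In the Hoxa2/Emx2 cluster, where all 9 members reached 30 UMIs in 1 or both libraries, 6 members were lower in the mutant beyond counting error, against 7.42% of the genes tested there. Of the lower tip pair, Dlx3 was at 65.4 and 45.2 CPM (log2 ratio -0.53, -0.74 to -0.33). The interval of the sparser Dlx4, at 12.4 and 10.95 CPM (log2 ratio -0.17, -0.63 to 0.28), included equality but overlapped that of Dlx3. Dlx5 was at 246 and 194 CPM (log2 ratio -0.34, -0.44 to -0.24) and Dlx6 at 94.6 and 69.5 CPM (log2 ratio -0.45, -0.61 to -0.28). In the whole-arch pair Dlx2 was at 101 and 73.9 CPM (log2 ratio -0.45, -0.62 to -0.29) and Dlx1 at 66.7 and 64.1 CPM (log2 ratio -0.06, -0.24 to 0.13), and these 2 intervals did not overlap. The ratio farthest from equality was that of Dlx4os, which had 185 control and 62 mutant UMIs here (23.8 and 8.93 CPM; log2 ratio -1.41, -1.85 to -0.99).

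In the distal mandibular-like cluster 7 members reached 30 UMIs and all 7 were lower in the mutant, against 8.99% of the genes tested there. Dlx3 was at 14.7 and 7.40 CPM (log2 ratio -0.99, -1.50 to -0.51), Dlx2 at 35.1 and 22.2 CPM (log2 ratio -0.66, -0.95 to -0.37) and Dlx1 at 27.2 and 20.1 CPM (log2 ratio -0.44, -0.75 to -0.13). Dlx5, at 95.4 and 78.2 CPM (log2 ratio -0.29, -0.44 to -0.13), and Dlx6, at 46.2 and 31.9 CPM (log2 ratio -0.54, -0.78 to -0.30), were lower as well. Hand1 and Hand2, which mark this region and act below Dlx5 and Dlx6, were at 55.9 and 23.2 CPM (log2 ratio -1.27, -1.54 to -1.01) and 203 and 178 CPM (log2 ratio -0.19, -0.30 to -0.09). Dlx1 rests on how the cluster was drawn, since at a resolution of 0.8 its log2 ratio in the best matching cluster was 0.26.

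In the maxillary-like cluster 5 of the 6 members that reached 30 UMIs were lower, against 7.31% of genes. The ratios of the lower-arch pair were farther from equality than those of the whole-arch pair, a contrast that was not tested and that rests on the cluster. Dlx5 was at 97.3 and 69.9 CPM (log2 ratio -0.48, -0.62 to -0.33) and Dlx6 at 34.9 and 22.2 CPM (log2 ratio -0.65, -0.91 to -0.40), whereas Dlx1 was at 64.0 and 56.5 CPM (log2 ratio -0.18, -0.35 to -0.01) and Dlx2 at 67.5 and 60.5 CPM (log2 ratio -0.16, -0.32 to 0.00). In mesenchyme cells gated on Lhx6 or Lhx8 alone of the region markers, the interval of Dlx5 included equality (log2 ratio -0.13, -0.27 to 0.02), as did those of Dlx1 (log2 ratio -0.15, -0.33 to 0.03) and Dlx2 (log2 ratio -0.14, -0.31 to 0.03), while Dlx6 was lower (log2 ratio -0.40, -0.66 to -0.15). For Dlx1 this small difference was absent at a resolution of 0.8 (log2 ratio 0.011). Dlx3, with 43 control and 10 mutant UMIs, was near the background level in both libraries.

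In the other clusters fewer members were measurable. In the Foxl2/Gata3 cluster Dlx5 was at 63.7 and 49.3 CPM (log2 ratio -0.37, -0.57 to -0.17) and Dlx6 at 15.5 and 10.7 CPM (log2 ratio -0.54, -0.98 to -0.11), the 2 of 5 members past the minimum that were lower (background 7.37%). In the Cyp26a1/Hmx1 cluster Dlx1 was at 45.7 and 26.2 CPM (log2 ratio -0.80, -1.32 to -0.28) and Dlx2 at 47.1 and 27.9 CPM (log2 ratio -0.76, -1.26 to -0.25), both of the 2 members past the minimum (background 7.12%). In the frontonasal-like cluster Dlx5 was lower, at 8.42 and 5.21 CPM (log2 ratio -0.69, -1.28 to -0.14; background 8.99%), and Dlx2, the other member past the minimum, was at 2.71 and 1.59 CPM. In the brain progenitor-like cells Dlx5 was lower as well, at 4.10 and 2.26 CPM (log2 ratio -0.86, -1.57 to -0.16). Dlx2 was at 4.62 and 4.18 CPM there, above both frontonasal-like levels. The frontonasal-like differences are therefore not read further. In the Vtn/Acta2 cluster no member reached 30 UMIs.

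**Figure D3:**
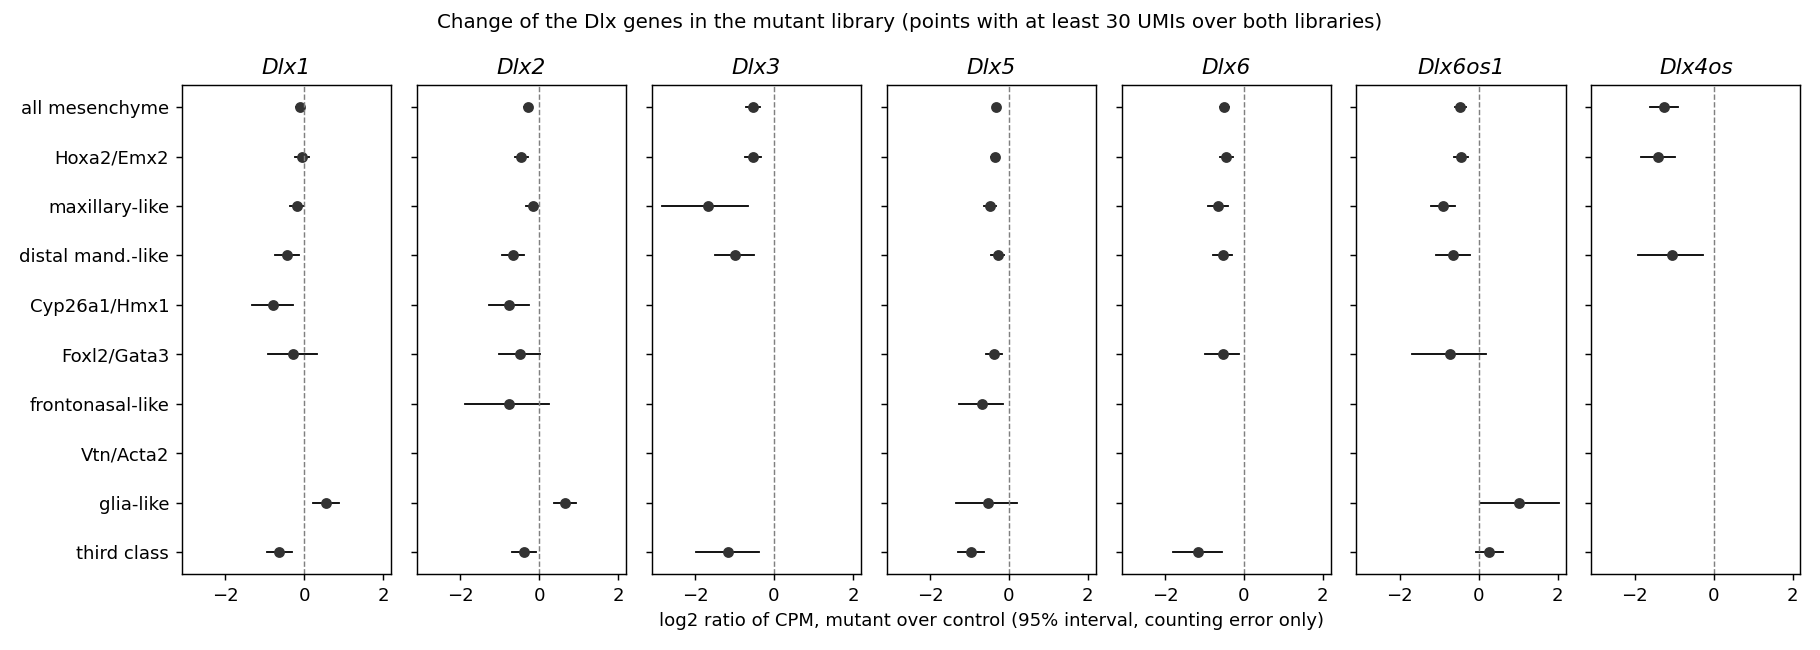
Log2 ratio of the mutant over the control CPM (x axis) of 7 members in the whole mesenchyme, 7 mesenchyme clusters, the glia-like cells and the third class (y axis); points are ratios, lines 95% intervals for counting error, and the dashed line marks equal levels. Only populations with at least 30 UMIs over both libraries are drawn. The mesenchymal points lie left of equality, and the glia-like points of Dlx1 and Dlx2 lie right of it.

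The Hoxa2/Emx2 cluster held cells with and without anterior Hox transcripts, which mark the second arch, and it was divided by a UMI of Hoxa2, Hoxb2, Hoxa3 or Hoxb3, without thinning, after the data had been seen. Among its cells with a Hox UMI (267 control and 306 mutant), Dlx5 was at 263 and 235 CPM (log2 ratio -0.16, -0.28 to -0.04). Among those without (266 control and 147 mutant), Dlx5 was at 227 and 98.6 CPM (log2 ratio -1.21, -1.43 to -0.98) and Dlx6 at 94.0 and 35.6 CPM (log2 ratio -1.40, -1.78 to -1.03). The Dlx5 intervals did not overlap, and the ratio was farther from equality in the cells without a Hox UMI. Dlx3 was at 73.2 and 52.9 CPM with Hox (log2 ratio -0.47, -0.71 to -0.22) and 56.5 and 27.4 CPM without (log2 ratio -1.04, -1.49 to -0.61). Dlx1 moved least in the cells without Hox, at 70.0 and 64.0 CPM (log2 ratio -0.13, -0.44 to 0.18), and Dlx4os was lower in both, with log2 ratios of -1.29 (-1.81 to -0.78) and -1.87 (-2.84 to -1.02).

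Other arch genes differed in this cluster too. Pitx1, a first-arch and hindlimb factor, was at 21.2 and 1.59 CPM (log2 ratio -3.74, -4.77 to -2.87), Hand2 at 8.49 and 2.59 CPM and Gsc, a homeobox gene of the lower arch, at 43.0 and 18.4 CPM (log2 ratio -1.22, -1.53 to -0.92). Whether the cluster held the same mix of arches in both libraries, and the part of this in its Dlx values, was not tested. The Cyp26a1/Hmx1 cluster was divided in the same way. There Dlx1/Dlx2 was at 86.5 and 110.2 CPM in cells with a Hox UMI (log2 ratio 0.35, -0.24 to 0.94) and 97.3 and 41.8 CPM in cells without (log2 ratio -1.22, -1.67 to -0.76), and a Hox UMI was found in 55 of 132 control cells and 37 of 243 mutant cells there.

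Grouping mesenchyme cells by marker UMIs in place of clusters gave values that differed between gates. Thinned cells were used for this. In cells with a Hox UMI and none of Hand2, Lhx6, Lhx8 or Alx1 (212 and 215 cells), Dlx5 was at 212 and 225 CPM (log2 ratio 0.08, -0.07 to 0.24), which included equality. In the few cells with both a Hox and a Hand2 UMI (40 and 21 cells) it was at 125 and 54.1 CPM (log2 ratio -1.21, -2.12 to -0.39). In cells with Hand2 alone of these markers (272 and 104 cells) it was at 91.0 and 62.4 CPM (log2 ratio -0.54, -0.86 to -0.24), and in cells with Lhx6 or Lhx8 alone (524 and 443 cells) at 84.6 and 77.6 CPM, as given above. In cells with none of these markers (1285 and 1260 cells) Dlx5 was at 106 and 44.7 CPM (log2 ratio -1.24, -1.36 to -1.12), where Dlx3 was at 21.5 and 8.69 CPM (log2 ratio -1.31, -1.58 to -1.04). That last set mixes several regions, and whether it held the same mix in both libraries was not tested.

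The antisense transcripts followed their loci. Dlx6os1 had its highest control level in the Hoxa2/Emx2 cluster, 83.9 (77.6 to 90.6) CPM, followed by the maxillary-like cluster, 28.6 (25.7 to 31.9), and the distal mandibular-like cluster, 16.9 (14.5 to 19.5). Its order of the last pair is the reverse of that of Dlx6. As a share of the UMIs of Dlx6 and Dlx6os1 together, Dlx6os1 took 47.0% (44.4 to 49.7%) in the Hoxa2/Emx2, 45.1% (41.4 to 48.7%) in the maxillary-like, 26.7% (23.4 to 30.2%) in the distal mandibular-like and 20.1% (14.3 to 27.1%) in the Foxl2/Gata3 cluster. The intervals of the first pair overlapped, as did those of the second, and no interval of one overlapped one of the other. The mutant shares were 46.8%, 40.9%, 25.3% and 18.2%, each within counting error of the control. Dlx6os1 itself was lower in the mutant in the Hoxa2/Emx2 (log2 ratio -0.46, -0.64 to -0.28), distal mandibular-like (log2 ratio -0.65, -1.07 to -0.23) and maxillary-like clusters (log2 ratio -0.90, -1.20 to -0.61).

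At the cell level Dlx6os1 went with Dlx5 as well as with the gene it spans. In the control mesenchyme 75.4% of the cells with a Dlx6os1 UMI had a Dlx5 UMI, against 19.3% of the cells without, and in the mutant 67.7% against 14.7%. For Dlx6 the shares were 36.1% against 9.55% in the control and 37.4% against 6.84% in the mutant. Dlx5 and Dlx6os1 do not overlap, but whether Dlx6 reads were counted as Dlx6os1, and their part in this relation, was not tested.

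**Figure D4:**
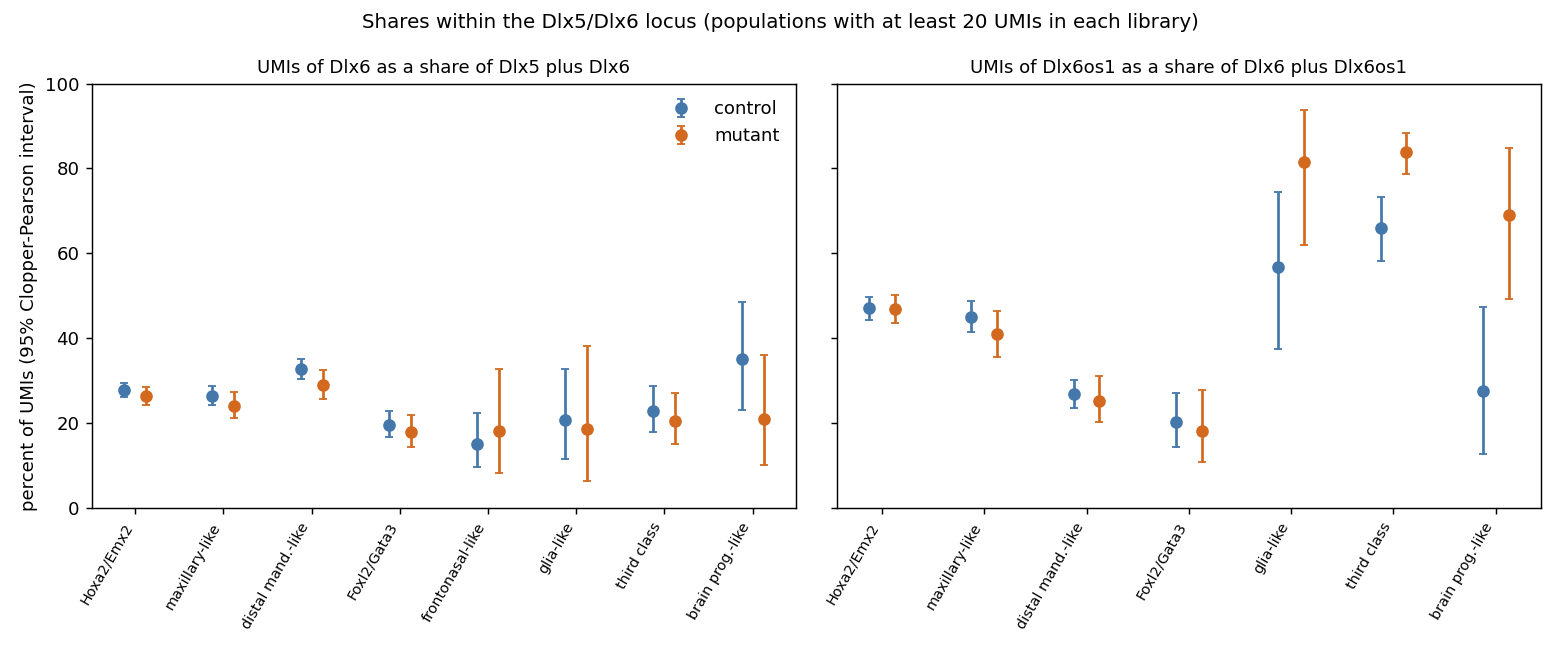
Shares of UMIs within the Dlx5/Dlx6 locus by population (x axis) for the control library (blue) and the mutant library (orange), with 95% Clopper-Pearson intervals; left, Dlx6 as a percent of Dlx5 plus Dlx6, and right, Dlx6os1 as a percent of Dlx6 plus Dlx6os1. The Dlx6os1 share is near 50% or below in the mesenchyme and higher in the third class, while the glia-like mutant value rests on called doublets.

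Dlx4os had the pattern of Dlx3, with 23.8 (20.5 to 27.5) CPM in the control Hoxa2/Emx2 and 5.69 (4.35 to 7.30) CPM in the distal mandibular-like cluster. Of the control mesenchyme cells with a Dlx4os UMI, 44.0% (40 of 91) had Dlx3 and 12.1% had Dlx4. Its share of the UMIs of Dlx4 and Dlx4os together was 67.1% (62.4 to 71.7%) in the control and 48.1% (40.7 to 55.6%) in the mutant mesenchyme, without overlap of the intervals. Its log2 ratio in the distal mandibular-like cluster was -1.06 (-1.92 to -0.26) from 61 and 17 UMIs. Dlx1as was highest in the Hoxa2/Emx2 cluster as well, at 6.05 and 5.76 CPM in control and mutant (log2 ratio -0.07, -0.72 to 0.57), and had 29 or fewer UMIs in each other cluster.

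The genes around Dlx in the arch network were set beside it. Of 8 genes of the endothelin signal that acts above Dlx5 and Dlx6, 7 passed 100 UMIs, 1 was higher and 1 lower beyond counting error, with a median log2 ratio of 0.00. The receptor Ednra was at 47.1 and 42.2 CPM (log2 ratio -0.16, -0.24 to -0.07), and Mef2c, a factor that responds to it, at 10.6 and 12.1 CPM (log2 ratio 0.19, 0.02 to 0.36). Of 7 lower-jaw genes downstream of Dlx5 and Dlx6, 6 were lower and Bmp7 was higher, with a median of -0.48. Hand1 was at 10.6 and 3.60 CPM (log2 ratio -1.55, -1.82 to -1.30), Gbx2 at 5.93 and 2.59 CPM (log2 ratio -1.19, -1.51 to -0.88), Pitx1 at 94.0 and 63.6 CPM (log2 ratio -0.56, -0.63 to -0.50) and Hand2 at 41.9 and 30.0 CPM (log2 ratio -0.48, -0.58 to -0.38). Alx4 of this list is also a frontonasal gene. Hand1 and Gbx2 were the 2 of the 7 that were lower by 1.5-fold or more.

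Of 3 upper-jaw genes that Dlx5 and Dlx6 hold down, 2 were higher in the mutant, Pou3f3 at 46.6 and 54.6 CPM (log2 ratio 0.23, 0.15 to 0.31) and Foxl2 at 15.6 and 20.2 CPM (log2 ratio 0.37, 0.24 to 0.51), and the interval of Irx5 included equality (log2 ratio 0.03, -0.05 to 0.11). None of the 3 passed 1.5-fold. Foxl2 was also a leading gene of the Foxl2/Gata3 cluster, in which Dlx5 was well above background in the control library. Among 9 other arch homeobox and forkhead factors, 8 passed the minimum, 5 were lower and 2 higher, with a median of -0.27. Msx1, a homeobox gene of the distal arch and the midface, was at 423 and 317 CPM (log2 ratio -0.41, -0.44 to -0.38), while the forkhead genes Foxd1 and Foxf2 were at 57.5 and 91.4 CPM (log2 ratio 0.67, 0.60 to 0.73) and 16.2 and 25.1 CPM (log2 ratio 0.63, 0.51 to 0.76). Of 11 forebrain GABA neuron genes only 3 passed in the mesenchyme, 2 of them higher, 1 of these by 1.5-fold or more, and 1 lower. Lhx6 was at 21.7 and 23.6 CPM (log2 ratio 0.12, 0.00 to 0.24) and Isl1 at 4.12 and 1.73 CPM (log2 ratio -1.25, -1.64 to -0.87), and the median of the 3 was 0.12. Over all 11652 genes the corresponding shares are those given above, 14.1% lower and 21.5% higher.

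The genes whose pattern over 7 mesenchyme clusters in both libraries (14 points, log2 of CPM plus 1) was most like that of 1 member of each pair were ranked by Pearson's r, as a description only, since the points of a library share its depth. The members resembled each other most, with r = 0.99 for Dlx1 and Dlx2, 0.98 for Dlx3 and Dlx4os, and 0.96 both for Dlx3 and Dlx4 and for Dlx5 and Dlx6. With the 9 members left out, the closest to Dlx2 were Mab21l1 (r = 0.89), Dgkd (0.88), Ehmt2 (0.88), Twist2 (0.88) and Sim2 (0.87). The closest to Dlx3 were Plcxd3 (0.92), 3110099E03Rik (0.92), Mycl (0.91), Homer2 (0.91) and Prpf8 (0.90), and 3110099E03Rik was also a leading gene of the Hoxa2/Emx2 cluster. The closest to Dlx5 were Kif5c (0.96), Trpm1 (0.94), Sem1 (0.93), Tiam1 (0.93) and Rcor2 (0.92).

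In the glia-like cells, which expressed the Schwann cell precursor genes Sox10, Erbb3 and Foxd3, Dlx1 and Dlx2 held most of the UMIs of the 9 members. Dlx1 was at 33.8 CPM in the control and 49.6 CPM in the mutant library (log2 ratio 0.55, 0.23 to 0.87) and Dlx2 at 42.7 and 67.2 CPM (log2 ratio 0.66, 0.38 to 0.93), while Dlx5 was at 9.83 and 6.78 CPM, against 4.10 and 2.26 CPM in the brain progenitor-like cells. Dlx1/Dlx2 made up 84.6% of the UMIs of the 6 coding genes in the control and 92.0% in the mutant. Of the 3 members with at least 30 UMIs, 2 were higher in the mutant and none lower, against 16.8% of genes higher and 12.7% lower. This direction is opposite to that in the mesenchyme, and the difference between the classes was not tested.

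The glia-like cells of the libraries were not alike in other respects. The summed level of 8 neuron markers in them was 2521 CPM in the control and 390 CPM in the mutant library, with 1 of 8 higher in the mutant, and that of 8 glia markers was 2011 and 2556 CPM, with all 8 higher. When only cells with a Sox10 UMI were used (175 control and 182 mutant), Dlx1 was at 48.2 and 52.4 CPM (log2 ratio 0.12, -0.20 to 0.45) and Dlx2 at 60.1 and 72.3 CPM (log2 ratio 0.26, -0.02 to 0.55), and both intervals included equality. When cells with a UMI of the neuronal genes Stmn2, Elavl4 or Dcx were left out (65 control and 142 mutant cells remained), Dlx1 was lower in the mutant, at 66.5 and 48.2 CPM (log2 ratio -0.46, -0.91 to -0.01). When cells with a UMI of the mesenchymal genes Prrx1 or Twist1 were left out (196 control and 172 mutant cells remained), both were higher in the mutant, with log2 ratios of 0.95 (0.56 to 1.35) for Dlx1 and 1.07 (0.74 to 1.41) for Dlx2. Without called doublets the log2 ratios were 0.58 (0.25 to 0.91) and 0.71 (0.42 to 0.99). The size and direction of the Dlx1 and Dlx2 differences in this class thus depended on the cells used. Dlx1 and Dlx2 were well above the background of brain progenitor-like cells in every one of these selections. For Dlx6os1, which had 17 control and 22 mutant UMIs in the class, 12 and 0 UMIs remained without called doublets, so that all mutant counts came from doublets.

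In the third class the members were rare and concentrated in few cells. Dlx1 was at 8.98 and 5.82 CPM (log2 ratio -0.63, -0.94 to -0.31), Dlx2 at 8.67 and 6.62 CPM (log2 ratio -0.39, -0.69 to -0.08) and Dlx5 at 9.78 and 5.02 CPM (log2 ratio -0.96, -1.28 to -0.64), and Dlx6os1, whose interval included equality, at 5.65 and 6.78 CPM (log2 ratio 0.26, -0.08 to 0.61). These are the 4 members with at least 100 UMIs, of which 3 were lower against a background of 9.32%. The 10 cells with the most UMIs of a gene held 58.2% of the control and 50.9% of the mutant Dlx1 UMIs, and 71.0% and 53.4% of the Dlx6os1 UMIs. The values of the class thus rest on a small number of cells. A cluster led by Otp, Cck and Tfap2d (418 control and 670 mutant cells) had 124 control and 132 mutant Dlx1 UMIs, against 170 and 175 in the class, and in it Dlx1 was at 26.9 and 17.3 CPM, Dlx5 at 24.7 and 11.9 CPM and Dlx6os1 at 19.9 and 23.1 CPM.

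The cells of this class with a Dlx1 or Dlx2 UMI (47 control and 56 mutant cells after thinning) carried genes of the forebrain GABA lineage. Sp9, a zinc finger gene of interneuron precursors, was detected in 38.3% of control and 35.7% of mutant cells with Dlx1/Dlx2, and in 3.76% and 3.88% of the cells without. Gad1 and Gad2 encode the enzymes that make GABA. Gad1 was found in 21.3% and 19.6% against 2.28% and 3.96%, and Gad2 in 29.8% and 32.1% against 4.36% and 7.08%. Slc17a6, the transporter of glutamatergic neurons, was found in 6.38% and 7.14% against 12.3% and 12.5% without, with overlapping intervals.

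In these cells the balance of the Dlx5/Dlx6 locus differed from that in the arches. Dlx6os1 was detected in 29.8% of control and 46.4% of mutant cells with Dlx1/Dlx2, against 0.268% and 0.250% without, and Dlx5 in 46.8% and 37.5% against 0.940% and 0.500%. Over the class, Dlx6os1 took 66.0% (58.2 to 73.3%) of the Dlx6 and Dlx6os1 UMIs in the control and 84.0% (78.7 to 88.3%) in the mutant library, above the interval of every mesenchyme cluster named above in the same library. The mesenchymal gene Prrx1 was also somewhat more frequent in the Dlx1/Dlx2 cells, at 14.9% and 8.93% against 4.30% and 72 of 2400 cells. Its part in these values was not tested.

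**Figure D5:**
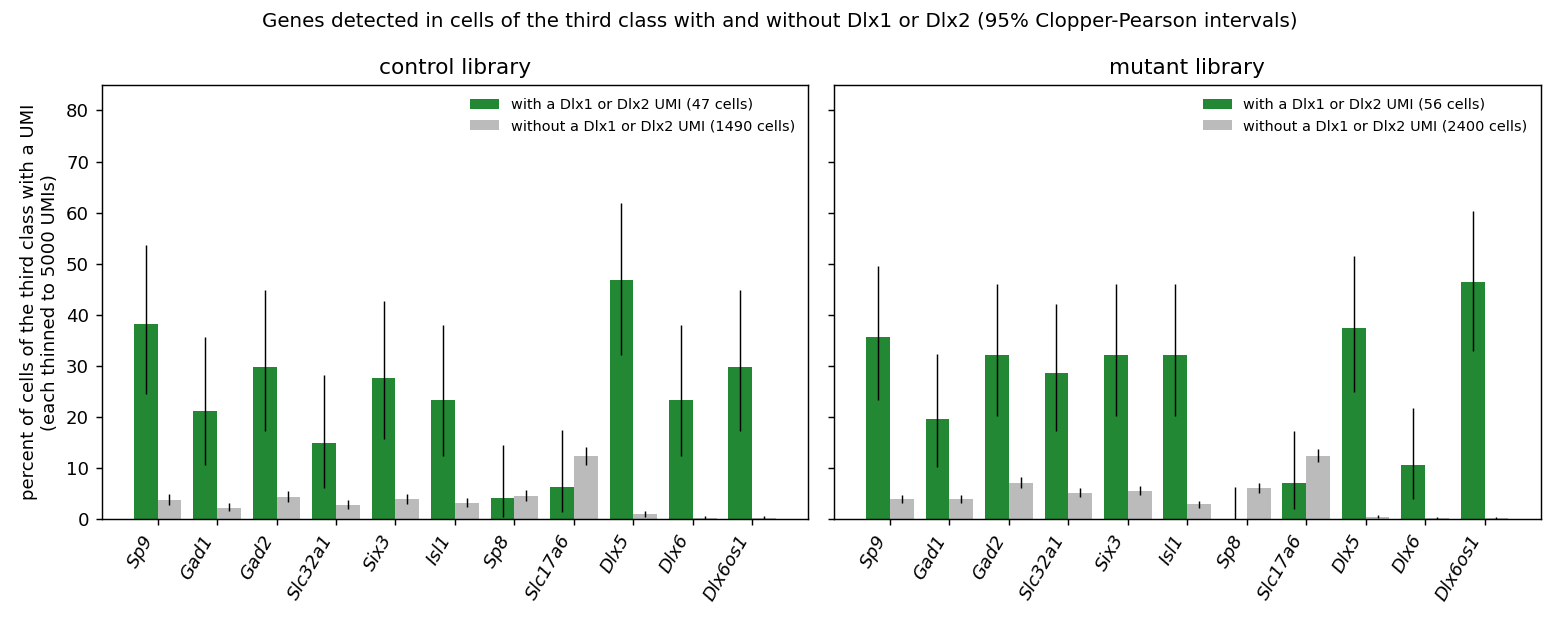
Percent of cells of the third class (y axis, each thinned to 5000 UMIs) with a UMI of each of 11 genes (x axis), for cells with (green) and without (grey) a Dlx1 or Dlx2 UMI, in the control library (left) and the mutant library (right), with 95% Clopper-Pearson intervals. Sp9, Gad1, Gad2, Dlx5 and Dlx6os1 are more frequent in the Dlx1/Dlx2 cells of both libraries, and Slc17a6 is not.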

How the data were processed

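The authors made 10x Chromium 3′ libraries and deposited raw UMI counts per gene and barcode from Cell Ranger (6.0.0 per the file headers; mm10), without normalization and with barcodes already filtered. Whether counting used strand is not given in the sources used here. Barcodes with over 10% mitochondrial UMIs, under 200 or over 7500 genes were removed, as in the study. Libraries were integrated on anchors in Seurat 5.3.0 (R 4.3.3) from 2000 variable genes, of which the 9 members, Tfap2a, Tfap2b and sex-linked transcripts were then dropped, and clustered at resolutions of 0.05 (classes), 0.4 (all cells, 30 dimensions) and 0.4 (mesenchyme, 20 dimensions). A cluster was named from fixed marker lists when at least 3 markers were higher, their mean log2 ratio exceeded 1 and 1 or more was among its 10 leading genes with no other list ahead; brain progenitor-like clusters needed a mean above 0 and no other list ahead. These thresholds were set after the clusters had been seen, so that a difference from the study's regions may come from the rebuilt names.

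UMIs were summed per library and population (scipy 1.17.1, Python 3.11.15). Levels are CPM with exact Poisson intervals, ratios have exact conditional binomial intervals and shares exact Clopper-Pearson intervals, all at 95% and for counting error only. Doublets were called by Scrublet (scanpy 1.11.5; 1.65% of control and 3.06% of mutant cells) and kept. The counts per library, 82313680 and 77251738 UMIs in kept cells, set the precision. Tests of replicates were not possible with 1 library a group. All 9 members, the targeted genes and fixed pathway lists were named in the text. The members and lists were chosen with earlier results of these data known. Alternatives were other scalings (edgeR 4.0.16 TMM), depths, resolutions, marker gates and filters. Scripts were tested on simulated data. Some genes are not reported here.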

Additional observations from a re-analysis of the deposited data

Results flagged for a closer look

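Some members had a mutant level above the control level in the glia-like cells and below it elsewhere, with each interval on its own side of equality. The difference between populations was not tested. For Dlx1 the log2 ratio was 0.55 in the glia-like cells, against -0.63 in the third class, -0.44 in the distal mandibular-like, -0.18 in the maxillary-like and -0.80 in the Cyp26a1/Hmx1 cluster. For Dlx2 it was 0.66 in the glia-like cells, against -0.39 in the third class, -0.66 in the distal mandibular-like, -0.45 in the Hoxa2/Emx2 and -0.76 in the Cyp26a1/Hmx1 cluster. For Dlx6os1 it was 1.02 in the glia-like cells, against -0.65 in the distal mandibular-like, -0.90 in the maxillary-like and -0.46 in the Hoxa2/Emx2 cluster. The mutant Dlx6os1 counts of the glia-like cells all came from barcodes called doublets, and the Dlx1 and Dlx2 values there changed with the cells used, as given above.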

How the results depend on the processing

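With 1 library a group, no library could be left out and the spread between embryos is unknown. No paired analysis was possible because each group was 1 pooled library. For the 9 members in the summed mesenchyme, TMM scaling, removal of called doublets, of cells under 1000 genes or of the doublet cluster (chosen after seeing the data), clustering with the members and clustering without integration moved no ratio out of its interval. Thinning to 5000 UMIs gave log2 ratios of -0.22 for Dlx1, -0.75 for Dlx3 and -0.46 for Dlx5. Cluster shares fixed at those of the control gave -0.21 for Dlx1 and -0.39 for Dlx2, and equal weight per cell gave -0.41 for Dlx5. The cause was not tested.

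Within the mesenchyme clusters, 183 log2 ratios under an alternative stayed within their interval or kept their call, 12 moved and 2 reversed. The reversed values were Dlx1 at a resolution of 0.8, 0.26 for the distal mandibular-like and 0.011 for the maxillary-like cluster. Each was then matched to an alternative cluster of 611 cells. These matched clusters held only 54.2% of the distal mandibular-like and 53.4% of the maxillary-like cells. In the glia-like cells without a Stmn2, Elavl4 or Dcx UMI, Dlx1 was at -0.46 and Dlx2 at -0.21.

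Detection in single cells followed depth. Thinned to 2500 UMIs and not thinned, Dlx1/Dlx2 was found in 23.6% and 62.5% of control cells with Dlx5/Dlx6 and in 10.0% and 19.3% of those without, and in 24.6% and 58.0% with and 9.11% and 20.03% without in the mutant. Dlx5/Dlx6 was found in 53.5% and 93.7% of control cells with Dlx3/Dlx4 and 16.5% and 31.7% of those without, and in 61.0% and 94.6% with and 12.9% and 26.3% without in the mutant. Each contrast kept its direction. With marker gates in place of clusters, the Dlx5/Dlx6 share of the 6 genes was 75.3% for Alx1 (control), 61.3% and 64.3% for Hand2 (control and mutant) and 47.8% and 46.9% for Lhx6/Lhx8 (control and mutant, with overlapping intervals, unlike the maxillary-like cluster).

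Over all genes, 100 were lower and 270 higher by 1.5-fold in the mutant mesenchyme. With a minimum of 30 UMIs these counts were 279 and 600, and at 2-fold 24 and 94.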
